A study of Mus musculus with 4 samples.

Results

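Antigen presentation in mouse skin was described through 9 listed genes: the class II genes Cd74, H2-Aa, H2-Ab1 and H2-Eb1, the class I genes B2m, H2-D1 and Tap1, the class II regulator Ciita and the Langerhans cell gene Cd207. They were listed by name, and every probe set (a group of short probes that reports 1 transcript level) that the platform annotation assigns to a single one of them was taken. Of the 9 genes, 7 had such a probe set, out of 17097 genes on the array, and they had 17 probe sets in all. B2m and Tap1 had no probe set assigned to them alone, so H2-D1 was the only class I gene of the list with values. Another 5 probe sets name H2-D1 together with other genes and were not used.

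Total RNA of the shaved and treated dorsal skin of male C3H mice was measured on 4 Affymetrix arrays. The mice were 8 weeks old at the start of the experiment. Arrays Control 1 and Control 2 held skin given the vehicle, Milli-Q water. Arrays TCQA 1 and TCQA 2 held skin given 1% TCQA on the skin daily for 30 days. TCQA is 3,4,5-tri-O-caffeoylquinic acid, a caffeic acid ester of quinic acid, and was first dissolved in ethanol. The paper dates collection to day 37 and the labels to day 30, and the paper states 5 mice per group. Whether an array held RNA of 1 mouse or of a pool is not given in the sources used here, so p-values measure only the spread between arrays, which may be technical. In whole skin, fewer cells of a type and less RNA per cell cannot be told apart.

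MHC class I molecules stand on almost every nucleated cell and show peptides made in the cytosol to CD8 T cells. They need B2m as their light chain and the Tap transporter to receive peptides. MHC class II molecules are made mainly by dendritic cells, Langerhans cells, macrophages and B cells, and they show peptides from endosomes to CD4 T cells. Cd74, the invariant chain, guards and guides new class II molecules, and Ciita is the coactivator that switches class II genes on. Langerhans cells are the antigen-presenting cells of the epidermis, and Cd207 (langerin) is the lectin that marks them.

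Class II promoters are known for X and Y boxes and class I promoters for kappa B and interferon response motifs. To show both kinds, 200 bases before the start site are given for the class II genes H2-Aa and H2-Eb1 and for H2-D1, the class I gene with values. The sequences are those of RefSeq for assembly GRCm38.p6, which held a promoter window for 6 of the 9 genes, and no window was found for Cd74, H2-Ab1 or Ciita. They are of the C57BL/6J strain, and C3H mice carry another MHC haplotype, so that letters in these animals may differ. Capitals mark ATTGG (the core of the Y box bound by NF-Y; CCAAT on the other strand), GCAAC (the core of the X box bound by RFX; GTTGC on the other strand), GGGGANNCC (a kappa B type motif; GGNNTCCCC on the other strand) and AANNGAAA (an interferon response half-site; TTTCNNTT on the other strand). Each sequence is written 5′ to 3′ along the gene's strand.
H2-Aa, minus strand, chr17:34287824-34288023: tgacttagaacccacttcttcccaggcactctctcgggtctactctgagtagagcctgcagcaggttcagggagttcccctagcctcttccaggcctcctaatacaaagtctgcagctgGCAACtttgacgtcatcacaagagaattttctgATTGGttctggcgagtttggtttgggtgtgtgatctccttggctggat
H2-Eb1, plus strand, chr17:34305667-34305866: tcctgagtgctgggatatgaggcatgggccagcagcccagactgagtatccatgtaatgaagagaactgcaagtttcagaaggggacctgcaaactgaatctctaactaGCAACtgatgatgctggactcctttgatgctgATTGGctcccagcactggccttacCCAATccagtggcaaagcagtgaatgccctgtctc
H2-D1, plus strand, chr17:35262894-35263093: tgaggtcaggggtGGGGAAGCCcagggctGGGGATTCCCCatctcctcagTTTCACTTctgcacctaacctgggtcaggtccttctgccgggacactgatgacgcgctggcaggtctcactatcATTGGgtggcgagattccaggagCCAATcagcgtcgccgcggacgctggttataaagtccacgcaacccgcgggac
In both class II promoters GCAAC preceded ATTGG. In H2-Aa the motifs began 81 and 48 bases before the start site, and in H2-Eb1 they began 91 and 59 bases before it, with CCAAT at 35 bases. H2-D1 held GGGGANNCC at 187 bases and again at 171 bases, where a match on the other strand overlaps it. It also held TTTCACTT at 150 bases, ATTGG at 76 bases and CCAAT at 53 bases, and a GCAAC left in lower case at 14 bases. Beyond the 200 bases printed, H2-D1 held GTTGC at 212 bases, so that an X box core preceded ATTGG there as well. H2-Aa held AAGAGAAA, a match to the interferon response half-site, at 213 bases. Of 32851 promoter windows of 250 bases, ATTGG was found in 33.8%, GCAAC in 29.9%, AANNGAAA in 21.3% and GGGGANNCC in 5.33%. The window of H2-K1, another classical class I gene, held GGGGANNCC at 127 and 111 bases with the same letters as H2-D1. None of the motifs was found in the Cd207 window. A match is a description of letters and not of binding.

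Control 1 stood apart from the other arrays. Across probe sets it correlated with them at r = 0.412 to 0.413, and they correlated with each other at r = 0.884 to 0.956. Skin markers differed in the same way: the median log2 value of 9 keratinocyte genes was 8.29 on Control 1 and 1.97 to 2.70 on the others, where 4 to 6 of the 9 lay below the array's own median. On those 3 arrays, 1 or 2 of the 9 were among the brightest 10% of probe sets, against 7 on Control 1. The median of 16 skeletal muscle genes was 9.72 on Control 1 and 2.60 to 3.16 on the others, and that of 70 ribosomal protein genes was 9.44 against 3.21 to 3.54. A log2 value of at least 8 was reached by 522 probe sets on Control 1 and by 23 to 31 on the others. The comparisons of TCQA with control below are therefore given with and without Control 1. Log2 values are RMA values, and the array medians lay between 2.30 and 2.55.

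Among the class II genes, Cd74 was bright on every array. On the log2 scale its probe set read 5.93 on Control 1 and 4.64 on Control 2, and the TCQA arrays read 4.67 and 4.75. Control 1 was the high array, and the other 3 lay within a narrow range in which both TCQA arrays were above Control 2. Control 1 exceeded the mean of the others by 1.24 (2.37-fold). Ranked among all probe sets of its own array, however, Cd74 lay at the 94.5th percentile on Control 1 and at the 96.0th to 97.4th on the others. After quantile normalization, which gives all arrays the same distribution, Control 1 was 0.38 below the others in place of above them, a log2 difference of -0.38.

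H2-Eb1 encodes the beta chain of the class II molecule I-E. It read 5.09 on Control 1 and 3.96 on Control 2, beside 3.61 for TCQA 1 and 3.90 for TCQA 2. Control 1 was again the highest, by 1.26 over the mean of the others (2.40-fold), and both TCQA arrays were below both controls. After quantile normalization the difference of Control 1 from the others was 0.25. Among 17096 genes, H2-Eb1 ranked 291st by likeness of its pattern to Cd74 (Euclidean distance 0.261 over the 4 arrays, each gene centred on its mean). The 5 genes most like Cd74 by this measure were Plrg1, Exosc9, Fam241b, Trappc4 and Gpatch1, at distances from 0.0156 to 0.0432 over the same 4 arrays, of which Control 1 stands apart.

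H2-Aa encodes the alpha chain of I-A. Its brightest probe set read 4.69 on Control 1 and 4.55 on Control 2, beside 4.76 for TCQA 1 and 4.61 for TCQA 2. Control 1 lay among the others and the groups overlapped. The probe set ranked at the 88.0th percentile on Control 1 and at the 95.4th to 96.7th on the others. A second one, 1452431_PM_s_at, read 2.26, 2.16, 1.92 and 1.87 in the same order, and both TCQA values were below both controls. The third, 1443783_PM_x_at, lay between 0.97 and 1.07, within the dimmest 1% of every array.

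H2-Ab1 encodes the beta chain of I-A. Its brightest probe set read 2.59 on Control 1 and 2.85 on Control 2, beside 3.03 for TCQA 1 and 3.05 for TCQA 2. Control 1 was the lowest and both TCQA arrays were above both controls. Probe set 1425477_PM_x_at was also lowest on Control 1, at 1.96 against 2.46 to 2.75, and 1450648_PM_s_at was highest there, at 2.33 against 1.81 to 1.93. The probe sets of H2-Ab1 therefore did not share a direction.

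Ciita lay between the 9.64th and the 51.6th percentile in its 3 probe sets. Probe set 1421211_PM_a_at read 1.52 on Control 1 and 2.07 on Control 2, beside 2.58 for TCQA 1 and 2.29 for TCQA 2. Control 1 was the lowest and both TCQA arrays were above both controls. The same gene's 1421210_PM_at read 1.67, 2.44, 2.14 and 1.92, and 1447075_PM_at read 1.32, 2.23, 1.90 and 2.13. All 3 were lowest on Control 1, as were 58.3% of all probe sets, at 0.49 to 0.80 below the mean of the others. Cd74 and H2-Eb1 were highest there. After quantile normalization 2 of the 3 Ciita probe sets stayed lowest on Control 1, as were 46.6% of all probe sets. Cd74 was then also below the mean of the others, with a difference of -0.38.

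Cd207 read 2.34 on Control 1 and 3.09 on Control 2, beside 3.34 for TCQA 1 and 3.19 for TCQA 2. Control 1 was the lowest array, 0.86 below the mean of the others (a difference of -0.86), and both TCQA arrays were above both controls. Cd207 lay at the 51.4th percentile on Control 1 and between the 69.1st and the 76.7th on the others.

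H2-D1, a classical class I heavy chain, had the widest spread between its probe sets. Probe set 1450170_PM_x_at read 6.43 on Control 1 and 1.84 on Control 2, beside 1.70 for TCQA 1 and 1.76 for TCQA 2. Control 1 was 4.66 above the mean of the others on the RMA scale, and the rank went from the 96.2nd percentile on Control 1 to between the 14.8th and the 20.1st elsewhere. On those 3 arrays the value was below the array's median, and without a detection call in the values used here the difference cannot be read as a measured fold. Probe set 1451784_PM_x_at was likewise highest on Control 1, at 3.42 against 2.01 to 2.29. The other 3 did not follow: 1452544_PM_x_at read 2.15 on Control 1 against 2.03 to 2.30, 1427651_PM_x_at read 1.48 against 1.34 to 1.49, and 1451934_PM_at was lowest on Control 1, at 1.33 against 1.86 to 2.10. Of the 5 probe sets, 4 carry the suffix _x_at, given to probes that can also match other transcripts, and related class I genes are close in sequence, so the share of H2-D1 in them is uncertain.

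**Figure D1:**
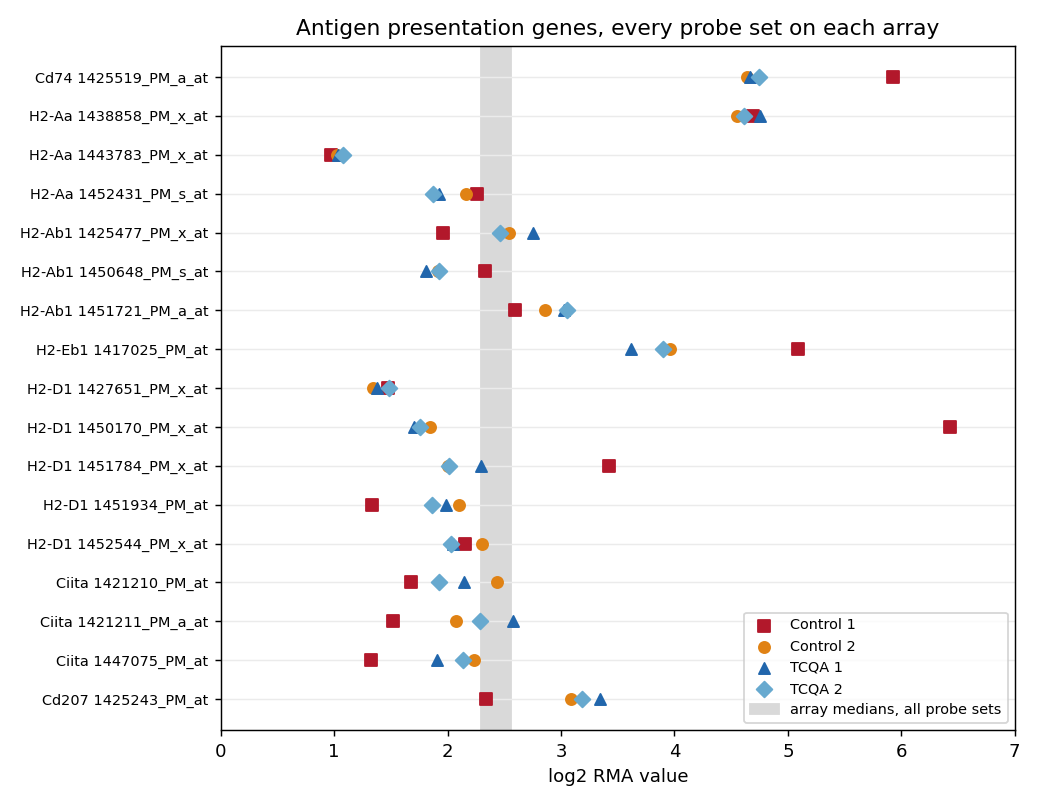
Log2 RMA value of each of the 17 probe sets (rows, by gene) on each of the 4 arrays, 1 point per array, with the range of the array medians shaded. Control 1 lies apart to the right for H2-D1 1450170_PM_x_at (6.43 against 1.70 to 1.84), Cd74 and H2-Eb1, and it is the lowest array in the Ciita and Cd207 rows. The other 3 arrays span at most 0.51 in a row, the widest being a Ciita row.

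Over the 17 probe sets, Control 1 was above each other array in 6 (35.3%) and below each in 8 (47.1%), against 28% and 58.3% of all 45037 probe sets. These shares are near the background. After quantile normalization they were 8 and 8, against 29.7% above and 46.6% below among all probe sets. Centring each array on its median raises every difference of Control 1 from the others by 0.23, and the median difference of all probe sets was -0.34 before it. The 3 other arrays spanned at most 0.51 in any of the 17 probe sets, with a median span of 0.25 against 0.40 over all probe sets.

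**Figure D2:**
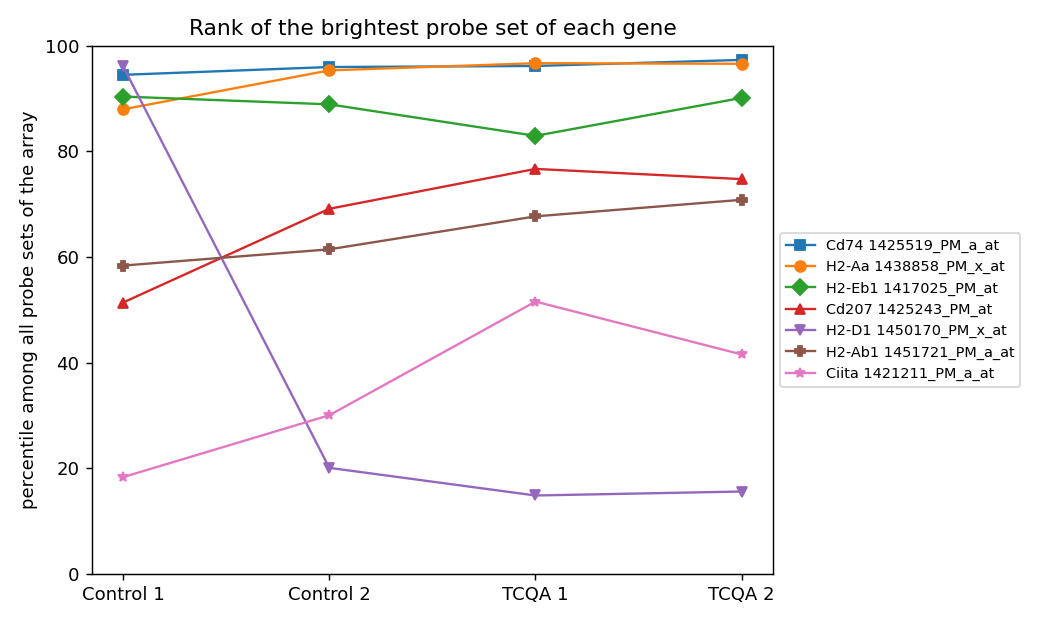
Percentile of the brightest probe set of each of the 7 genes among all probe sets of the same array, with lines joining the values of 1 probe set. H2-D1 falls from the 96.2nd percentile on Control 1 to below the 21st on the others. Cd74 stays above the 94th on all 4 but, like H2-Aa, H2-Ab1, Ciita and Cd207, ranks lowest on Control 1.

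No probe set of these genes passed the test of TCQA against control. With limma and Benjamini-Hochberg adjustment over all 45037 probe sets, 0 of the 17 had an adjusted p under 0.05, where 0% of all probe sets did, and 0 had an unadjusted p under 0.05, against 0.313% of all. An unmoderated test gave 0 adjusted calls on the array as well. The log2 fold changes, TCQA minus control, ran from -2.41 to 0.64, with 9 positive, 8 negative and a median of 0.02, beside a median of 0.12 over all probe sets. The adjusted p lay between 0.923 and 0.995, and the smallest p that an exact permutation test allows with 2 arrays a group is 0.333.

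The largest size was that of H2-D1 1450170_PM_x_at, with a log2 fold change of -2.41 (SE 1.56, limma adjusted p = 0.923) and a 95% interval from -6.56 to 1.75. Cd74 gave -0.58 with an interval from -2.00 to 0.84, H2-Eb1 gave -0.76 with one from -2.10 to 0.57, and Cd207 gave 0.55 with one from -0.53 to 1.63. Without Control 1 these 4 values were -0.11, 0.06, -0.20 and 0.18, and all 17 lay between -0.40 and 0.36. Without Control 2, where Control 1 is the lone control and is assumed to vary like the TCQA group, 4 of the 17 were lower with TCQA at an adjusted p under 0.05 (limma), among 16.1% of all probe sets, and 0 were higher, among 7.34%. They were Cd74, H2-Eb1 and H2-D1 1450170_PM_x_at and 1451784_PM_x_at, with log2 fold changes of -1.22, -1.33, -4.70 and -1.27.

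Both TCQA arrays were above both controls in 4 probe sets (H2-Aa 1443783_PM_x_at, H2-Ab1 1451721_PM_a_at, Ciita 1421211_PM_a_at and Cd207), 23.5% against 17.9% of all probe sets. They were below both controls in another 4 (H2-Aa 1452431_PM_s_at, H2-Eb1, H2-D1 1450170_PM_x_at and H2-D1 1452544_PM_x_at), 23.5% against 10.9%. Against Control 2 alone, both TCQA arrays were higher in 8 probe sets and lower in 7, where 27.2% and 33.8% of all probe sets were.

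**Figure D3:**
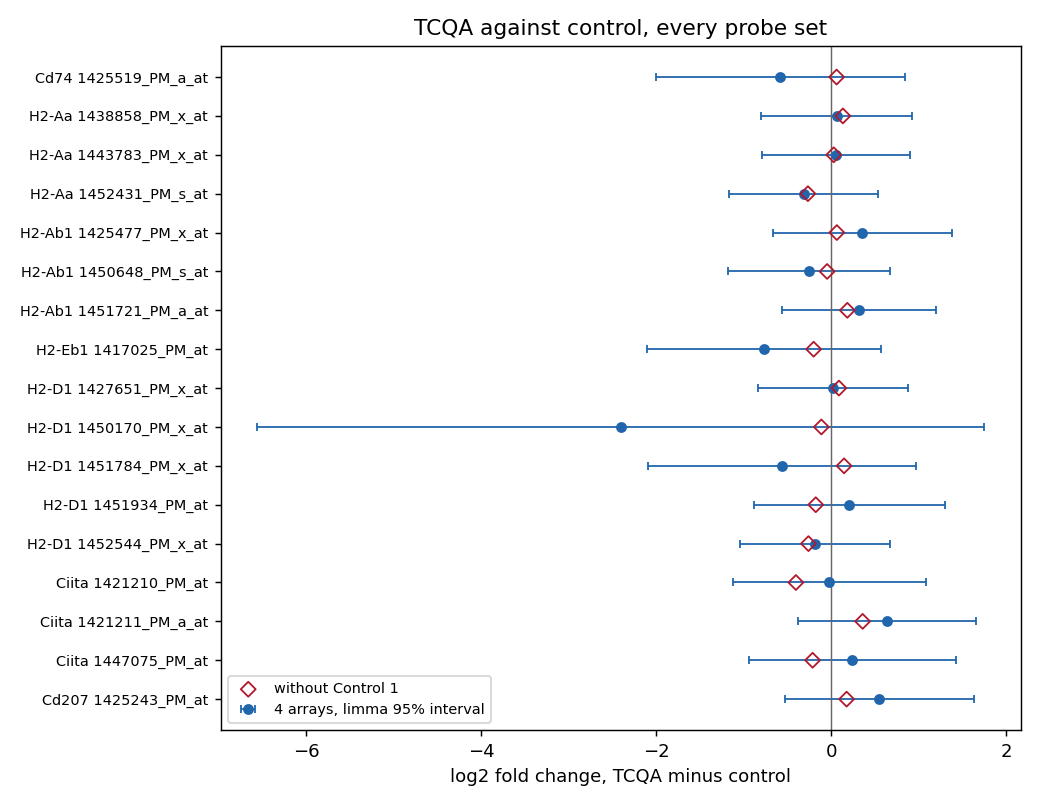
Log2 fold change of TCQA against control for the 17 probe sets, as limma estimates with 95% intervals over 4 arrays (filled circles) and as the mean of both TCQA arrays minus Control 2 (open diamonds). Every interval spans 0, and the diamonds lie between -0.40 and 0.36.

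Class II was then set against class I, with the brightest probe set of each gene over the 4 arrays. The median log2 fold change of the 4 class II genes was -0.26 and that of H2-D1 was -2.41, a difference of 2.15. Control 1 exceeded the other arrays by a median of 0.65 in class II and by 4.66 in H2-D1, a difference of -4.01. These values have no test, and they rest on the choice of 1 probe set of H2-D1, which was below the median on 3 of the 4 arrays. By the mean over each gene's probe sets, the fold change of H2-D1 was -0.58 and the difference between the classes 0.26. With the brightest probe set again, but without Control 2, they were -4.70 and 4.08. Control 1 counts in the choice, and when it was made on the other 3 arrays, the H2-D1 probe set was 1452544_PM_x_at, Control 1 exceeded the others by 0.03, and both differences between the classes turned sign, to -0.07 and 0.62. Without Control 1 the median fold changes were 0.10 for class II and -0.11 for H2-D1.

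The wider pathways showed the classes over more genes. Of 16 measured class I pathway genes, Control 1 was above each other array in 13 and below each in 2, against 33.9% and 53.6% of all 17097 genes. The median difference was 2.08, beside -0.30 over all genes. After quantile normalization the counts were 10 and 3 and the median difference 1.12, where 31.2% of all genes were above and 48.3% below. Their median level was 5.04 on Control 1 and 2.79 to 2.92 elsewhere. Ribosomal protein genes moved with them, with 69 of 70 above each other array, and their part in the result was not tested. H2-T23, a nonclassical class I gene, read 6.45 on Control 1 and 3.79 on Control 2, beside 3.74 for TCQA 1 and 2.88 for TCQA 2. The heavy chain H2-K1 read 6.34, 4.82, 4.77 and 4.13 in the same order. These brightest probe sets were highest on Control 1, with both TCQA arrays below both controls. For each gene, 1 other probe set was lowest there: H2-T23 1419658_PM_at read 1.98 against 2.97 to 3.27, and H2-K1 1450534_PM_x_at read 4.17 against 4.23 to 4.65.

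Most, but not all, of the genes that make and load class I peptides were also highest on Control 1. Psmb8, a catalytic subunit of the immunoproteasome, read 5.18 on Control 1 and 1.98 to 2.28 on the others, and its partner Psmb9 read 4.91 against 3.92 to 4.05. The proteasome activator Psme1 read 5.83 against 2.44 to 2.78. The chaperone Canx, which folds new heavy chains among many other glycoproteins, read 6.42 against 2.43 to 2.79, and tapasin (Tapbp), which holds the heavy chain at the Tap transporter, read 5.76 against 4.77 to 5.05. Nlrc5, the coactivator of class I genes, read 4.42 against 1.83 to 2.16. Tapbpl, a relative of tapasin, differed least, at 2.67 against 2.54 to 2.93. The 2 list genes that were lowest on Control 1, named after their values were seen, were the disulfide isomerase Pdia3 of the loading complex, at 2.74 against 3.46 to 4.13, and the nonclassical H2-M3, at 3.52 against 4.21 to 4.59.

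Of 28 measured class II pathway genes, Control 1 was above each other array in 11 and below each in 12, against 33.9% and 53.6% of all genes. The median difference was -0.07, beside -0.30 over all genes. After quantile normalization the counts were 7 and 16 and the median was -0.37, where 31.2% of all genes were above and 48.3% below. The 3 largest differences were those of lysosomal proteases used by most cells. Ctsl read 6.35 on Control 1 and 1.58 to 1.90 on the others, Ctsb read 6.71 against 2.63 to 2.65, and Ctsd read 7.19 against 4.15 to 4.95. Ctss, the protease of antigen-presenting cells that trims the invariant chain, read 3.79 against 3.15 to 3.49. Rfx5, the X box factor, read 4.65 against 3.69 to 4.33.

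The class II molecules themselves were not uniform. H2-Ea, the alpha chain of I-E, read 4.50 on Control 1 and 5.96 on Control 2, beside 5.89 for TCQA 1 and 5.53 for TCQA 2, and Control 1 was the lowest, while its partner H2-Eb1 was highest there. The peptide loader H2-DMa read 2.47 against 2.79 to 3.15, and H2-DMb1 read 1.86 against 1.77 to 2.00. Over the pathway lists Control 1 exceeded the other arrays by 2.15 more in class I than in class II, and by 1.64 more when probe sets were chosen on the other 3 arrays. This difference was not tested.

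**Figure D4:**
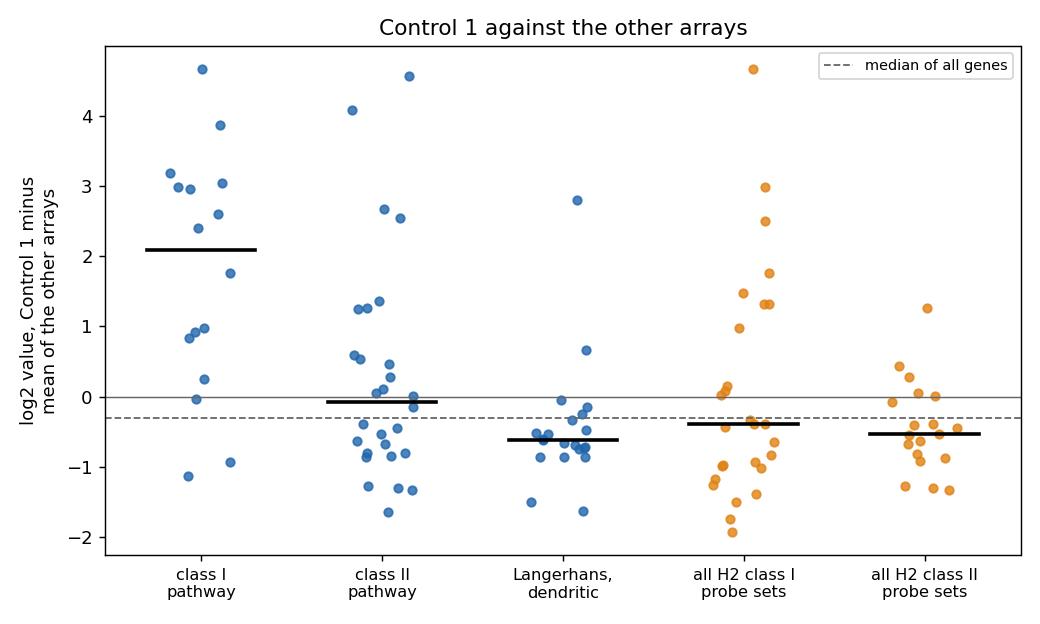
Log2 value on Control 1 minus the mean of the other 3 arrays for the genes of 3 lists (blue, brightest probe set, 16, 28 and 21 genes) and for every H2 probe set of class I (27) and class II (19) (orange), with list medians as bars and the median of all genes dashed. The class I pathway genes lie mostly above 0 (median 2.08), and the H2 probe sets of both classes lie mostly below it (medians -0.39 and -0.52). The median of all genes is -0.30 and that of all probe sets -0.34, also below 0.

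All H2 probe sets, bright and dim, were counted as well. Of 27 probe sets of 15 class I genes, Control 1 was above each other array in 9 (33.3%) and below each in 16 (59.3%), and of 19 probe sets of 10 class II genes in 3 (15.8%) and 13 (68.4%), against 28% and 58.3% of all probe sets. The median differences were -0.39 and -0.52, beside -0.34 over all probe sets. In class I, 7 probe sets were higher and 7 lower on Control 1 by more than 1 log2 unit, and in class II 1 was higher and 3 were lower, where 17.8% of all probe sets were higher and 13.1% lower by that much.

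Against TCQA, 0 genes of either pathway list had an adjusted p under 0.05 (limma). Both TCQA arrays were below both controls in 7 of the 16 class I genes and above both in 0, against 13.6% and 16% of all genes. In the 13 class I genes where Control 1 was highest, the TCQA arrays could not lie above both controls. In the class II list both counts were 6 of 28. Against Control 2 alone, both TCQA arrays were lower in 9 class I genes and higher in 4. In class II these counts were 12 and 9, and among all 17097 genes they were 5965 and 4494. The median log2 fold changes were -1.07 for class I and 0.07 for class II, and without Control 1 both were -0.15.

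Cells that present antigen were followed through 21 measured genes of Langerhans and dendritic cells. On each array 5 to 7 of the 21 lay below the array's own median, and the values used here have no detection call. Control 1 was below each other array in 17 and above each in 2, against 53.6% and 33.9% of all genes. The median difference was -0.62, beside -0.30 over all genes, and the list medians were 2.60 on Control 1 and 2.76 to 3.19 on the others. After quantile normalization the counts were 14 below and 3 above, where 48.3% of all genes were below and 31.2% above. Epcam, an adhesion molecule of Langerhans cells and of epithelial cells, read 4.55 to 4.82 on the other arrays and was lower on Control 1, with a difference of -0.66 from their mean. The integrin Itgax read 3.01 against 3.56 to 4.14. Zbtb46, a transcription factor of conventional dendritic cells, read 2.89 against 4.07 to 4.75, and the inhibitory receptor Sirpa, which binds CD47, read 2.83 against 3.94 to 4.55. Id2, a regulator needed by Langerhans cells and made by keratinocytes and other cells too, was higher on Control 1, at 5.15 against 2.04 to 2.81. The lectin Mgl2 differed least, at 2.60 against 2.34 to 2.92. The other high gene, the lectin Clec10a, which was named after its values were seen, read 3.33 against 2.30 to 2.95. With TCQA, both arrays were above both controls in 8 of the 21 genes and below both in 0, against 16% and 13.6% of all genes. In the 17 genes where Control 1 was lowest, the TCQA arrays could not lie below both controls. Against Control 2 alone both were higher in 9 and lower in 5, where 4494 and 5965 of all 17097 genes were. The adjusted p was under 0.05 in 0 (limma), and the median log2 fold change was 0.26, or 0.01 without Control 1.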

How the data were processed

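RNA of 4 skin samples was measured on Affymetrix mouse PM arrays. The values deposited by the authors are on the log2 scale and were made by RMA, which subtracts background, normalizes probes and summarises them to probe sets. Per the submitters' processing notes, the programs were Affymetrix Expression Console and Transcriptome Analysis Console, and the methods give version 4.0.1 for the latter. Of 45141 probe sets, 104 Affymetrix controls were left out. In the platform annotation, 28898 of the other 45037 have a single gene, 551 have several and 15588 have no entry. RefSeq identifiers were found for 28689, with no change of symbol.

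TCQA was compared with control in limma 3.58.1 (R 4.3.3), with a two-sided moderated test on 2 residual degrees of freedom, and p was adjusted by Benjamini-Hochberg over the 45037 probe sets. No further normalization or filter was applied. The methods name an analysis of variance, which was run as the unmoderated test. The limma step was tested on data simulated with the spread of Control 2, TCQA 1 and TCQA 2. The check that simulated sizes were recovered left out the deviations of Control 1, so it does not speak to the fit of the 4 arrays. A gene of a list was represented by the probe set that was brightest in the mean of the 4 arrays. Control 1 against the other arrays has no replicate check and no test. The members and gene lists were chosen with earlier results of these data known. The text gives all probe sets of the members. From the lists, the rule allowed up to 3 genes with the largest difference between Control 1 and the others and the 1 with the smallest, and some of these are not printed. H2-Ea, H2-K1, Tapbp, Psmb8, Psmb9, Nlrc5, H2-DMa, H2-DMb1, Ctss, Rfx5, Ptprc, Itgax and Epcam were added by name, and H2-T23, H2-M3, Pdia3 and Clec10a after their values were seen. Precision is limited by the number of arrays.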

Additional observations from a re-analysis of the deposited data

How the results depend on the processing

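Across 159 alternative values for the 17 probe sets of these genes, 16 changed sign and 4 passed an adjusted p of 0.05, all 4 of them without Control 2. With limma's trend and robust options, with the unmoderated test and for the 6 that remained without dim probe sets, no call changed. These settings and the replicate block leave the log2 fold change as it is. No sign could change in them, though they count among the 159. Quantile normalization turned the log2 fold change of Cd74 to 0.31, of H2-Aa 1443783_PM_x_at to -0.054 and of H2-D1 1427651_PM_x_at to -0.13, and median centring turned H2-Aa 1438858_PM_x_at to -0.025, 1443783_PM_x_at to -0.031 and H2-D1 1427651_PM_x_at to -0.067. Leaving out each array in turn gave -1.22 to 0.063 for Cd74, -0.0098 to 0.14 for H2-Aa 1438858_PM_x_at, -0.046 to 0.089 for H2-D1 1427651_PM_x_at, -1.27 to 0.15 for 1451784_PM_x_at, -0.18 to 0.59 for 1451934_PM_at, -0.40 to 0.36 for Ciita 1421210_PM_at and -0.21 to 0.70 for 1447075_PM_at.

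The class II median log2 fold change was 0.32 after quantile normalization, -0.62 to 0.10 with 1 array left out (the latter without Control 1), -0.76 without probe sets ending in _s_at, _x_at or _a_at (1 gene a class), 0.063 with Ciita added, 0.073 in the wider lists and 0.093 there with probe sets chosen on the other 3 arrays. Without those suffixes the class I value was 0.21 and class II minus class I -0.97, and with probe sets chosen on the other 3 arrays the latter was -0.073. For Control 1 minus the others, the class II median was -0.32 after quantile normalization, 0.88 after median centring, 1.26 without the suffixes, 0.053 with Ciita, -0.070 in the wider lists and -0.27 there with the other choice of probe sets. The class I value was 3.37, 4.89, 1.09 by the mean over each gene's probe sets, -0.65 without the suffixes, 2.08 in the wider lists, and 0.025 and 1.37 (wider lists) with the other choice. Class II minus class I was -3.70 after quantile normalization, -4.08 to -3.99 with 1 array left out, -0.42 by the mean, 1.91 without the suffixes, -4.61 with Ciita, -2.15 in the wider lists, and 0.62 and -1.64 (wider lists) with the other choice. The choice on the other 3 arrays, the crossed block and the counts on other scales were chosen after seeing the data.

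With the study's limits (a 2-fold change with p up to 0.05, unadjusted), 61 probe sets of the array were higher and 55 lower with TCQA. These counts were 182 and 100 after quantile normalization, 3 and 16 without dim probe sets, 12 and 14 by the unmoderated test, and 37 higher with the trend and robust options. Whether the numbers 1 and 2 pair the arrays could not be decided. The deviations of Control 1 from the group mean correlated with those of TCQA 1 at r = -0.12 and with those of TCQA 2 at r = 0.12. With 2 arrays a group these values mirror each other. A replicate block left 227 lower and changed no call of the 17 probe sets, and the crossed pairing left 16 higher. Leaving out 1 array gave 1 to 5532 higher, 0 to 7979 lower and 0 to 10538 at an adjusted p under 0.05, the highest of each without Control 2. The cause of these changes was not tested.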

Other observations

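Other immune cells of the skin were followed through lists of their markers, with the brightest probe set of each gene. Of 7 measured genes of all leukocytes, Control 1 was below each other array in 4 and above each in 1, which was Ptprc, the phosphatase CD45, at 2.62 against 2.05 to 2.33. After quantile normalization 2 were below and 2 above. All 5 measured B cell genes were lowest on Control 1, with a median difference of -0.90, and the surface protein Ms4a1 (CD20) read 2.14 there against 3.02 to 4.03. Of 5 mast cell genes, 4 were lowest on Control 1, among them the protease Mcpt4, at 1.57 against 2.10 to 2.70. On Control 1, 3 of the B cell and 4 of the mast cell genes lay below the array's own median. On the others 0 to 1 and 3 to 4 did. Of 7 T cell genes, 4 were below and 2 above, and Cd3e read 4.84 against 5.10 to 5.30. Of 3 neutrophil genes, 2 were below and 0 above. For comparison, Control 1 was below each other array in 53.6% of all genes and above each in 33.9%, with a median difference of -0.30. After quantile normalization these shares were 48.3% and 31.2%, and 4 T cell, 5 B cell, 3 mast cell and 2 neutrophil genes were below.

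Of 12 macrophage genes, 6 were below and 3 above, which turned to 3 below and 5 above after quantile normalization, with the lysozyme Lyz2 at 5.56 on Control 1 against 2.25 to 2.48 and the Fc receptor Fcgr1 at 2.37 against 3.81 to 4.57. Of 28 measured genes of the interferon response, 12 were below and 5 above, or 12 and 8 after quantile normalization. Among all genes 53.6% were below and 33.9% above, or 48.3% and 31.2% after quantile normalization. The receptor chain Ifngr1 read 5.49 against 2.01 to 2.41, the kinase Jak2 4.21 against 2.58 to 3.02, and the antiviral gene Rsad2 2.80 against 3.77 to 4.19. Interferon gamma itself (Ifng) lay between 1.84 and 2.01 on the 4 arrays. No gene of these lists had an adjusted p under 0.05 for TCQA against control (limma, adjusted over all probe sets).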
